A study of Mus musculus with 32 samples.

Results

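At 10-12 months, spinal cord of mice carrying the CHMP2Bintron5 transgene was compared with spinal cord of non transgenic control animals across all expressed genes. The comparison held 12 of the 32 libraries of the study, 6 of each genotype, chosen by their labelled age and genotype. All animals were of mixed background (FVB/N, C57BL/6 and DBA/2), and the transgenic animals are labelled as carrying 12 copies. The other libraries came from the same 2 genotypes at 1.5 months (6 control and 5 CHMP2Bintron5) and at 6 months (5 and 4). The labels name neither the promoter of the transgene nor the number of lines. Nothing in the labels says that replicates were separate animals, so p-values measure only the spread between these libraries. In bulk tissue, fewer cells of a type and less RNA per cell of that type cannot be told apart.

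CHMP2B belongs to ESCRT-III, a membrane-remodelling complex that pinches vesicles into late endosomes and takes part in the closure of autophagosomes. The intron5 form comes from a splice-site mutation found in familial frontotemporal dementia linked to chromosome 3, and lacks the C-terminal end of the protein. That end binds the ATPase that takes the complex apart, and its loss disturbs the passage of cargo from endosomes to lysosomes.

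The libraries held 31565428 to 53928910 counts, and levels are given as CPM, counts relative to the library total. The tissue label was borne out by its markers: Hoxc8, a trunk position gene, lay between 17.2 and 32.2 CPM, and the motor neuron enzyme gene Chat between 18.9 and 35.3 CPM. Sensory neurons of the dorsal root ganglion were near absent (Scn10a at most 0.233 CPM). Skeletal muscle RNA stood out in CHMP2Bintron5 replicate 3, where Acta1 reached 112 CPM. The other 11 libraries held 14.6 CPM of it or less.

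A total of 20015 genes were tested at this age. CHMP2Bintron5 libraries had 1650 genes higher (8.24% of those tested) and 2075 lower (10.4%) at an edgeR adjusted p under 0.05. Most differences were small: 1232 of the higher and 1750 of the lower genes differed by less than 1.5-fold, and only 108 and 82 by 2-fold or more. The median log2 fold change of all genes was 0.02. The counts moved by more than 1.5 times with single libraries: 813 higher and 1189 lower without control replicate 3, 891 and 1314 without control replicate 4, 935 and 1318 without CHMP2Bintron5 replicate 2, and 976 and 1296 without CHMP2Bintron5 replicate 4.

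The libraries also differed in how their counts ran with the GC content of genes. The slope of a library (log2 CPM against the mean of the 12, per 10% of GC content) lay between -0.46 and 0.17 in the controls and between -0.04 and 0.42 in CHMP2Bintron5. Group means were -0.14 ± 0.26 and 0.14 ± 0.19 (SD, n = 6 each), a difference of 0.28 that an exact two-sided permutation test of the 924 divisions gave p = 0.0649. Control replicates 3 and 4 (-0.46 and -0.45) and CHMP2Bintron5 replicates 2 and 4 (0.42 and 0.33) stood apart, and the other 8 libraries had nearly equal group means (0.02 in both).

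Calls varied with GC content as well. In the decile of genes with the lowest GC content (median 39.8%), 13 were higher and 372 lower, and in the highest decile (59.4%) 269 were higher and 14 lower. Across 19914 genes the log2 fold change and GC content had a Spearman rho of 0.53, a description across genes, which are not independent. With a per-library offset for GC content and gene length, rho was -0.01 and the lowest decile held 137 higher and 165 lower genes, the highest 176 and 184. Totals with the offset were 1711 higher (8.55%) and 2173 lower (10.9%). Both fits called 1051 genes higher (5.25%) and 1447 lower (7.23%), which is 63.7% and 69.7% of the genes called without the offset, and no gene was called in opposite directions. Without the 4 libraries of extreme slope, chosen after seeing the data, rho was 0.02, and 162 genes (0.814%) were called higher and 242 (1.22%) lower with 4 libraries in each group.

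**Figure D1:**
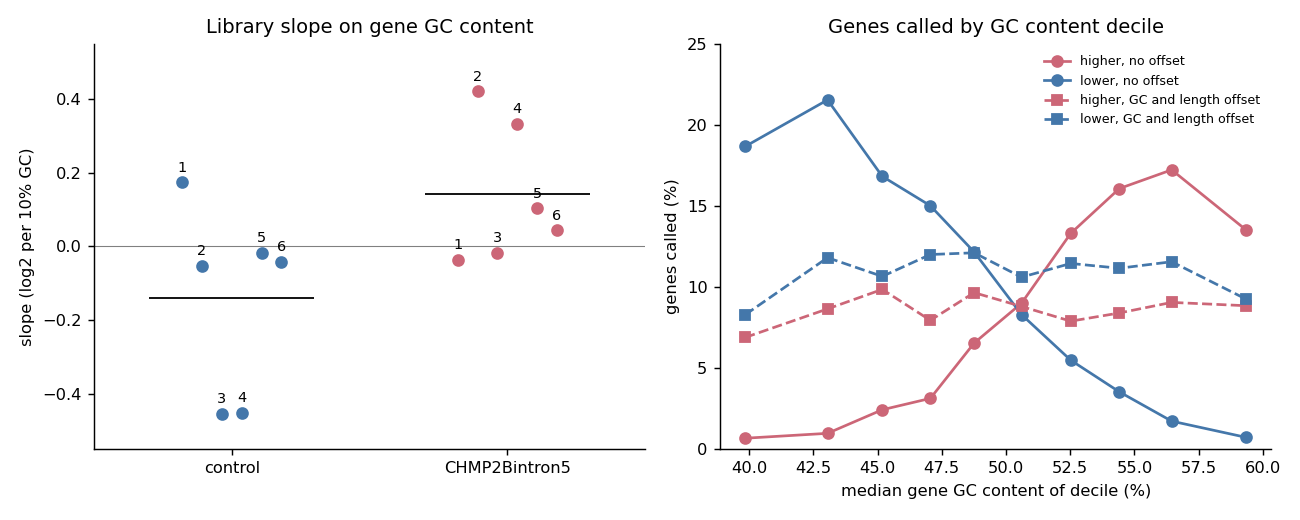
Left, slope of each 10-12 month library on gene GC content (log2 per 10% GC), with replicate numbers and black lines at the group means. Right, percent of genes called higher or lower against the median GC content of each decile, without (solid) and with (dashed) the GC and length offset. Control replicates 3 and 4 and CHMP2Bintron5 replicates 2 and 4 lie farthest from 0, and the solid lines cross while the dashed lines run flat.

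Values below are from the fit without the offset. Where the offset ended a call of a named gene, its value is given, and the calls of the other named genes held with it. Genes whose call was lost in the 8 libraries of moderate slope are named in each paragraph with their value or adjusted p there. That fit left out only the 4 libraries of extreme slope. It kept the libraries of the younger ages, which were not screened for slope. All levels are in CPM scaled by TMM factors. Counts of called list members stand against the shares of all genes called, 8.24% higher and 10.4% lower. Those shares were 8.55% and 10.9% with the offset, and 0.814% and 1.22% in the 8 libraries.

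The endogenous Chmp2b gene, which encodes the mouse counterpart of the transgene product, had 45.2, 52.8 and 68.9 CPM in the controls (lowest, median and highest) and 54.3, 68.1 and 75.7 CPM in CHMP2Bintron5. The groups overlapped and the log2 fold change was 0.25 ± 0.13 (SE, edgeR adjusted p = 0.161). With the offset it was 0.45 (adjusted p = 0.00021). Counts of a human transgene were not analysed here, so this gene does not check the genotype labels. Thy1, a surface glycoprotein of neurons whose regulatory sequence is widely used to drive transgenes in neurons, had 558, 635 and 755 CPM in controls and 1371, 1463 and 1861 CPM in CHMP2Bintron5. Every transgenic library lay above every control library, at a log2 fold change of 1.27 ± 0.11 (adjusted p = 9.08e-09) and 1.09 with the offset. Whether a transgene cassette adds to the Thy1 count was not tested.

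Groups that did not overlap at all were seen for 633 genes on the higher side (3.16% of those tested) and 776 on the lower side (3.88%). The plot of CPM by library shows 12 such genes.

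**Figure D2:**
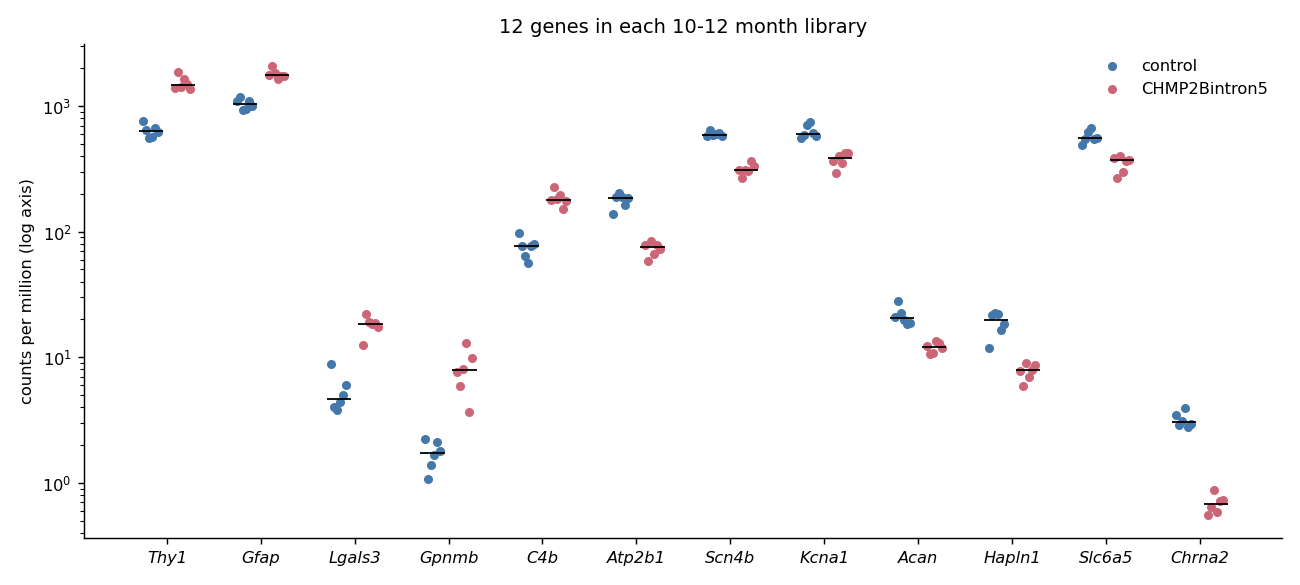
CPM (log axis) of 12 genes in each 10-12 month library, control in blue and CHMP2Bintron5 in red, with black lines at the medians of 6 libraries. No group of one genotype overlaps the other in any of the 12 genes.

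Called ion channel and pump genes were lower in CHMP2Bintron5 with 1 exception. Of 24 such genes tested, 12 were lower and 1 higher, against 10.4% and 8.24% of all genes, with a median log2 fold change of -0.23, and 16 were lower and 1 higher with the offset (median -0.32). In the 8 libraries of moderate slope 10 were lower. The calcium pump Atp2b1, which clears calcium across the plasma membrane, fell from 138, 185 and 204 CPM in the controls to 58.4, 74.9 and 84.7 CPM. That is a log2 fold change of -1.29 ± 0.11 (edgeR adjusted p = 5.01e-09), and -1.10 with the offset. The groups were far apart, and no other gene of the list had a larger fall.

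Scn4b, the β4 subunit that supports resurgent sodium current, had 573, 591 and 642 CPM in controls and 267, 311 and 363 CPM in CHMP2Bintron5. Its log2 fold change was -0.93 ± 0.08 (edgeR adjusted p = 1.45e-08), and -1.08 with the offset. All 6 transgenic libraries were lower than all 6 controls. The axonal potassium channel genes Kcna1 and Kcna2 fell by 0.74 and 0.63 on the log2 scale (adjusted p = 1.98e-06 and 1.45e-06), and their groups did not overlap either. Both kept their call in the 8 libraries of moderate slope, at -0.53 and -0.49. Atp1b1, the β1 subunit of the sodium pump, was lower by 0.45 (adjusted p = 0.000164), and by 0.31 in the 8 libraries, where its call was lost (adjusted p = 0.0546). Cacna1b, the pore of N-type calcium channels, was the 1 member called higher, at 0.21, and that call was lost with the offset (0.07, adjusted p = 0.378) and in the 8 libraries (0.19, adjusted p = 0.11).

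Perineuronal net and matrix genes, which encode the coat of hyaluronan-binding proteoglycan around fast-spiking neurons, were lower where called without the offset. Of 11 tested, 5 were lower and none higher, with a median of -0.27; 6 were lower and 2 higher with the offset, and 4 were lower in the 8 libraries. Acan, the core protein aggrecan, had 18.5, 20.4 and 28.2 CPM in controls and 10.7, 12.0 and 13.4 CPM in CHMP2Bintron5, a log2 fold change of -0.84 ± 0.09 (edgeR adjusted p = 8.84e-07). Hapln1, a link protein that ties such cores to hyaluronan, went from 11.9 to 22.5 CPM in the controls to 5.93 to 9.02 CPM. Its groups were separate, at -1.28 ± 0.16 (adjusted p = 3.34e-06) without and -1.02 with the offset. Hapln4 and Ncan fell by 0.42 and 0.40. The 2 members called higher only with the offset included Vcan, the proteoglycan versican of precursor cells (0.35, adjusted p = 0.00168, against 0.18 and 0.237).

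Called genes of particular neuron classes went in both directions, as did called genes in general. Chrna2, a nicotinic receptor subunit used as a marker of Renshaw cells, had the largest fall among the genes named by rank. It went from 2.81, 3.04 and 3.94 CPM in the controls to 0.55, 0.684 and 0.878 CPM in CHMP2Bintron5, a log2 fold change of -2.21 ± 0.16 (edgeR adjusted p = 2.48e-10), 4.64-fold lower. The offset gave -2.31, the 8 libraries of moderate slope -2.07, and no library of either group lay near the other. Of 16 Renshaw and ventral interneuron genes tested, most did not pass the test. The list had 3 lower and none higher, against 10.4% and 8.24% of all genes. The others included Foxp2, a transcription factor of ventral interneurons, at -0.57 (adjusted p = 0.00152), whose call was lost in the 8 libraries (-0.41, adjusted p = 0.134). Genes tested within 10 Mb of Chrna2 on chromosome 14 were called at 19.8% (11 higher and 23 lower of 172), against 18.6% over all genes.

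Slc6a5, the glycine transporter of inhibitory terminals, had 490, 553 and 668 CPM in controls and 266, 369 and 397 CPM in CHMP2Bintron5. Its log2 fold change was -0.72 ± 0.10 (edgeR adjusted p = 1.54e-05), and -0.70 with the offset. The groups were separate, and the 8 libraries gave -0.49. Pvalb, the calcium-binding protein parvalbumin, fell by 0.44 (adjusted p = 0.0103) with overlapping groups. Slc32a1, which loads GABA and glycine into vesicles, was called lower only with the offset (-0.58, adjusted p = 3.74e-06, against -0.23 and 0.415 without it). Penk, the enkephalin precursor, was higher by 0.40 (adjusted p = 0.00525) and by 0.20 with the offset, and was not called in the 8 libraries (0.30, adjusted p = 0.211). Of 17 inhibitory neuron genes, 4 were called higher and 3 lower, against 8.24% and 10.4% of all genes. The higher count was 1 without control replicate 3 or 4 and 2 without CHMP2Bintron5 replicate 2, 4 or 6, and the lower count was 5 without control replicate 1.

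Of 18 motor neuron genes tested, 3 were higher and 2 lower, against 8.24% and 10.4% of all genes. Esrrb and Esrrg, orphan receptors of the estrogen-related family, the second a marker of gamma motor neurons, fell by 0.47 (edgeR adjusted p = 0.000422) and by 0.78 (adjusted p = 0.000748). Control values of Esrrb lay between 12.6 and 14.6 CPM and transgenic values between 9.26 and 10.4 CPM. Chrnb4, a nicotinic receptor subunit, was higher by 0.74 ± 0.14 (adjusted p = 0.000861), and Calcb, a calcitonin gene-related peptide, by 0.77 ± 0.19 (adjusted p = 0.00571). Among excitatory neuron genes, 3 of 14 were higher and 1 lower, against the same shares of all genes. Slc17a6, a vesicular glutamate transporter, was the lower one, by 0.40 (adjusted p = 0.00797). The calls of Esrrg (-0.45, adjusted p = 0.137), Calcb (0.56, adjusted p = 0.252) and Slc17a6 (-0.20, adjusted p = 0.472) were lost in the 8 libraries, and those of Esrrb and Chrnb4 were kept. The motor neuron list had 5 higher genes without control replicate 1 or CHMP2Bintron5 replicate 1.

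Of 25 neuropeptide and receptor genes, 10 were higher and none lower, against 8.24% and 10.4% of all genes, with a median of 0.36, and 9 and 0 with the offset. Sstr2, a somatostatin receptor, rose from 7.59, 8.40 and 9.38 CPM to 11.2, 11.8 and 12.3 CPM, a log2 fold change of 0.47 ± 0.08 (edgeR adjusted p = 0.000137). Tac1, the substance P precursor, rose by 0.42 (adjusted p = 0.00403), and Trh, the thyrotropin-releasing hormone precursor, by 0.53 (adjusted p = 0.00412). The higher count was 6 without control replicate 3, control replicate 4 or CHMP2Bintron5 replicate 4. In the 8 libraries Sstr2 was the 1 gene of the 25 called, with Tac1 at 0.37 (adjusted p = 0.134) and Trh at 0.44 (adjusted p = 0.095).

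Synapse genes were lower in 12 of 35 cases and higher in 3, against 10.4% and 8.24% of all genes. The counts were 15 and 3 with the offset. Snap25, a membrane fusion protein of the presynaptic terminal, had 2813, 3348 and 3963 CPM in controls and 1966, 2399 and 2605 CPM in CHMP2Bintron5. It fell by 0.56 ± 0.08 on the log2 scale (edgeR adjusted p = 4e-05), and by 0.33 with the offset, with no overlap between groups. Vamp1 and Syt2, vesicle proteins used at fast synapses, were both lower by 0.36 (adjusted p = 8.71e-05 and 0.000349) and remained called in the 8 libraries. Vamp2, their counterpart at most central synapses, was higher by 0.31 (adjusted p = 3.39e-05), and stood at 0.06 with the offset (adjusted p = 0.735) and at 0.25 in the 8 libraries (adjusted p = 0.00617). Nrxn3, an adhesion protein, fell by 0.46, and its call was lost in the 8 libraries (-0.31, adjusted p = 0.0919). The count of higher synapse genes was 1 without control replicate 3, control replicate 4 or CHMP2Bintron5 replicate 2.

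Axonal cytoskeleton and transport genes were lower in 8 of 23 cases and higher in none, and in 12 and 0 with the offset. The 3 kinesin-1 heavy chains, the motors of anterograde transport, all fell. Kif5b went from 403, 487 and 576 CPM in controls to 214, 289 and 317 CPM in CHMP2Bintron5 (-0.78 ± 0.11, edgeR adjusted p = 3.87e-05). Kif5a and Kif5c fell by 0.54 (adjusted p = 3.31e-06) and 0.57 (adjusted p = 2.57e-05), with groups that did not overlap, and all 3 calls held in the 8 libraries. The neurofilament genes Nefl and Nefm fell by 0.40 and 0.37, and Ina, the α-internexin gene, by 0.44 (adjusted p = 6.04e-06). Map2, a dendritic microtubule protein, fell by 0.52 (adjusted p = 0.00222). Among the 8 libraries the calls of Nefl (-0.32, adjusted p = 0.0703), Nefm (-0.30, adjusted p = 0.163) and Map2 (-0.31, adjusted p = 0.228) were lost.

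Of 27 genes of the axon injury response, 8 were higher and none lower, against 8.24% and 10.4% of all genes, and 10 were higher and 3 lower with the offset. The higher count was 3 without control replicate 3, control replicate 4 or CHMP2Bintron5 replicate 2, and 4 without CHMP2Bintron5 replicate 4. Ecel1, an endopeptidase induced in injured neurons, had 35.4, 52.8 and 57.4 CPM in controls and 75.6, 82.8 and 108 CPM in CHMP2Bintron5. It rose by 0.85 ± 0.14 (edgeR adjusted p = 0.00018), and by 0.55 with the offset, and was the 1 member called in the 8 libraries. Atf3, a stress-induced transcription factor, rose by 0.87 ± 0.19 (adjusted p = 0.00259), although the highest control (4.73 CPM) lay above the lowest transgenic library (4.39 CPM). Hspb1, a small heat shock protein, rose by 0.80 (adjusted p = 0.0108) and by 0.41 with the offset. Atf3 (0.76, adjusted p = 0.0906) and Hspb1 (0.43, adjusted p = 0.466) were not called in the 8 libraries. Of 18 immediate early genes none was called without the offset. With it 1 was, Arc, a synaptic plasticity gene that was lower (-0.66, adjusted p = 4.79e-05).

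Called reactive astrocyte genes were all higher. Of 28 tested, 11 were higher and none lower, with a median of 0.30, and 13 and 0 with the offset; 4 were higher in the 8 libraries. Gfap, the intermediate filament of astrocytes, had 930, 1046 and 1180 CPM in controls and 1656, 1765 and 2068 CPM in CHMP2Bintron5. It rose by 0.79 ± 0.10 (edgeR adjusted p = 2.88e-06), and by 0.67 with the offset. The lowest transgenic library was above the highest control. Aspg, an asparaginase, and Amigo2, an adhesion protein used as a reactive marker, rose by 1.22 (adjusted p = 0.000244) and 0.44 (adjusted p = 1.16e-05), and Clcf1, a cytokine of the interleukin-6 family, by 0.95 (adjusted p = 0.000987). The call of Clcf1 was lost in the 8 libraries (0.68, adjusted p = 0.117).

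Of 18 general astrocyte genes, 4 were higher and 4 lower, against 8.24% and 10.4% of all genes. The glutamate transporter Slc1a2 fell from a median of 1723 CPM to 1307 CPM (-0.42 ± 0.08, edgeR adjusted p = 0.00102), whereas the glutamate transporter Slc1a3 rose from 161 CPM to 226 CPM (0.43 ± 0.09, adjusted p = 0.00132). S100b, a calcium-binding protein, fell by 0.49 (adjusted p = 9.16e-05), and Mlc1, a membrane protein of astrocyte endfeet, rose by 0.34 (adjusted p = 0.00165). All 4 had groups that did not overlap, and both transporters kept their call with the offset (-0.34 and 0.56). In the 8 libraries Slc1a3 and S100b kept their call, while Slc1a2 (-0.27, adjusted p = 0.153) and Mlc1 (0.24, adjusted p = 0.133) did not.

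Microglial genes were taken as 2 lists, and the difference between the lists was not tested. Of 31 genes of the disease-associated state, 12 were higher and 2 lower, with a median of 0.37, 11 and 1 with the offset, and 4 and 0 in the 8 libraries. The lower count was 1 without any 1 of control replicates 2 to 6 or CHMP2Bintron5 replicates 4 to 6. Of 18 homeostatic microglial genes, 1 was called, Csf1r, the receptor for colony stimulating factor, at 0.25 (edgeR adjusted p = 0.0447), and this was lost with the offset (0.12, adjusted p = 0.315) and in the 8 libraries (0.08, adjusted p = 0.774). The higher count of that list was 2 without replicate 1 of either group, and 0 without any 1 of control replicates 2 to 5 or CHMP2Bintron5 replicates 2, 4 and 5. The summed CPM of the homeostatic list lay between 2291 and 2646 in the controls and between 2331 and 2604 in CHMP2Bintron5.

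Gpnmb, a lysosome-associated glycoprotein of lipid-laden phagocytes, had the highest log2 fold change among the genes named by rank. It went from 1.08, 1.73 and 2.24 CPM in controls to 3.70, 7.85 and 12.9 CPM in CHMP2Bintron5 (2.22 ± 0.35, edgeR adjusted p = 8.92e-05), and the offset gave the same 2.22. Lgals3, the lectin galectin-3, rose from 3.80, 4.68 and 8.84 CPM to 12.5, 18.5 and 22.3 CPM (1.76 ± 0.19, adjusted p = 8.84e-07). Both remained called in the 8 libraries and had separate groups. Itgax, an integrin of phagocytes, rose by 1.60 (adjusted p = 0.00316), and Trem2, the lipid-sensing receptor of microglia, by 0.85 (adjusted p = 0.000342); neither was called in the 8 libraries (1.43, adjusted p = 0.108, and 0.52, adjusted p = 0.0871).

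Csf1, a growth factor for microglia, rose by 0.40 (edgeR adjusted p = 0.000137), and the chemokine Ccl4 by 1.33 ± 0.33 (adjusted p = 0.00607). Another chemokine, Ccl3, was higher by 1.34 (adjusted p = 0.0191, and at most 0.0539 without 1 library). Spp1, osteopontin, is on the list of the disease-associated state but is also abundant in motor neurons, and it fell from 154, 190 and 272 CPM to 95.1, 104 and 133 CPM (-0.87 ± 0.14, adjusted p = 0.000159). Tyrobp, the adaptor of Trem2, was called only without the offset (0.57, adjusted p = 0.0255, against 0.32 and 0.193), and Clec7a, a phagocytic lectin, only with it (0.90, adjusted p = 0.00544, against 0.66 and 0.0809). Tlr2, a Toll-like receptor, rose by 0.47. Of these genes Csf1 kept its call in the 8 libraries, while Ccl4 (1.03, adjusted p = 0.214), Ccl3 (1.08, adjusted p = 0.318), Spp1 (-0.59, adjusted p = 0.0515), Tyrobp (0.31, adjusted p = 0.57) and Tlr2 (0.57, adjusted p = 0.0753) did not.

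Complement component C4 rose with a wide gap between groups. C4b had 56.3, 76.8 and 97.7 CPM in controls and 150, 180 and 225 CPM in CHMP2Bintron5, a log2 fold change of 1.29 ± 0.13 (edgeR adjusted p = 1.57e-07), and 1.05 in the 8 libraries. Its near-identical copy C4a rose by 1.18 (adjusted p = 4.88e-05), but reads of the pair can be split between them, so the 2 values are not independent. C1qc, a subunit of the initiating complex C1q, rose by 0.63 (adjusted p = 0.03) with overlapping groups, and its highest adjusted p without 1 library was 0.0925. In the 8 libraries it stood at 0.24 (adjusted p = 0.701). Of 20 complement genes, 3 were higher and 2 lower, against 8.24% and 10.4% of all genes. The higher count was 7 without control replicate 1, and 1 without control replicate 4, CHMP2Bintron5 replicate 2 or CHMP2Bintron5 replicate 4. The lower count was 1 without control replicate 3, 4 or 6, or without CHMP2Bintron5 replicate 2 or 4.

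Lysosomal genes were higher in 12 of 42 cases and lower in 3, against 8.24% and 10.4% of all genes, in 7 and 1 with the offset, and in 1 and 0 in the 8 libraries. Without CHMP2Bintron5 replicate 2 they were 7 higher and 1 lower. The lower count was also 1 without control replicate 3, control replicate 4 or CHMP2Bintron5 replicate 4, and 5 without control replicate 1. Atp6v0d2, a proton pump subunit of specialised phagocytes, rose by 2.48 ± 0.48 (edgeR adjusted p = 0.000885) from a median of 0.226 CPM to 1.31 CPM. Grn, the progranulin gene, in which loss-of-function mutations cause frontotemporal dementia, had 44.7, 55.5 and 71.4 CPM in controls and 71.0, 74.7 and 94.5 CPM in CHMP2Bintron5 (0.49 ± 0.10, adjusted p = 0.00101; 0.31 with the offset). The highest control lay just above the lowest transgenic library. Gusb, a glucuronidase, rose by 0.29 (adjusted p = 0.0039). Neither Grn (0.28, adjusted p = 0.154) nor Gusb (0.27, adjusted p = 0.0812) was called in the 8 libraries. Ctsd, the protease cathepsin D, and Psap, the saposin precursor, were called higher by 0.27 and 0.22 without the offset, and with it stood at 0.08 (adjusted p = 0.587) and 0.06 (adjusted p = 0.235). Their 8-library values were 0.13 (adjusted p = 0.586) and 0.04 (adjusted p = 0.878).

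Of 27 genes of the ESCRT machinery itself, 2 were higher and 3 lower, a share near the background (8.24% and 10.4% of all genes), and 4 and 2 with the offset. Without single libraries the counts ran from 0 (without control replicate 3 or CHMP2Bintron5 replicate 2) to 2 higher and from 1 (without control replicate 4, CHMP2Bintron5 replicate 2 or 4) to 6 lower (without control replicate 1). None of the 27 was called in the 8 libraries. Ptpn23, an ESCRT-associated phosphatase-like protein, was higher by 0.53 (edgeR adjusted p = 0.0288, and at most 0.0925 without 1 library). Chmp5, an ESCRT-III subunit, was lower by 0.21 (adjusted p = 0.00369), and its value with the offset was -0.10 (adjusted p = 0.0526). Of 28 autophagy genes 3 were higher and 8 lower, 3 and 7 with the offset, and none was called in the 8 libraries. Both fits called 3 higher and 4 lower, against 5.25% and 7.23% of all genes. The lower count of 8 became 3 without CHMP2Bintron5 replicate 2, 4 without control replicate 3 or CHMP2Bintron5 replicate 4, and 5 without control replicate 4. The called genes included Rb1cc1, a scaffold of autophagy initiation, at -0.56 (adjusted p = 0.00458; -0.27 with the offset), and Atg16l1, a part of the lipidation complex, at 0.24 (adjusted p = 0.00803). Sqstm1, the autophagy receptor p62, was higher by 0.28 (adjusted p = 0.0102; 0.15 with the offset). In the 8 libraries Ptpn23 stood at 0.16 (adjusted p = 0.761), Chmp5 at -0.15 (adjusted p = 0.2), Rb1cc1 at -0.27 (adjusted p = 0.379), Atg16l1 at 0.16 (adjusted p = 0.317) and Sqstm1 at 0.13 (adjusted p = 0.501).

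Of 32 interferon response genes, none was higher and 7 were lower, against 8.24% and 10.4% of all genes, with a median of -0.33, and the offset gave the same counts with a median of -0.32. The lower count was 2 without control replicate 4, 3 without control replicate 3 or CHMP2Bintron5 replicate 4, 4 without control replicate 6 or CHMP2Bintron5 replicate 3 or 6, and 1 in the 8 libraries. Ifi44, an interferon-induced cytoplasmic protein, went from 0.891, 1.46 and 1.97 CPM in controls to 0.36, 0.572 and 0.771 CPM in CHMP2Bintron5 (-1.32 ± 0.33, edgeR adjusted p = 0.0069). Gbp3, a guanylate-binding protein, fell by 0.92 ± 0.22 (adjusted p = 0.0055), and was the 1 member called in the 8 libraries. Isg15, a ubiquitin-like modifier, and Oas2, an RNA-sensing synthetase, were lower by 0.69 (adjusted p = 0.0227) and 0.75 (adjusted p = 0.0292), and the call of each was lost when some single libraries were left out (adjusted p up to 0.0636 and 0.106). Outside the list, Slfn5 and Tnfsf10, both inducible by interferon, fell by 1.03 (adjusted p = 0.00167) and 1.04 (adjusted p = 0.00329). Ifi44 (-1.15, adjusted p = 0.161), Isg15 (-0.92, adjusted p = 0.0506), Oas2 (-0.49, adjusted p = 0.478) and Slfn5 (-0.84, adjusted p = 0.0961) were not called in the 8 libraries, and Tnfsf10 was.

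Gbp3 and Isg15 are shown with the 150 bases before their start sites because both fell and both hold the interferon-response motif, a pair of GAAA blocks with any 2 bases between them, on either strand. The promoter of Ctsd is shown for contrast: its lysosomal-gene motif TCACGTGA is present, while its call depended on the offset. Sequences are from RefSeq, build GRCm38.p6, 5′ to 3′ along the gene's strand, with motif matches in capitals. Those of Gbp3 read as the reverse complement, and overlapping matches form 1 run. The windows lie at chr3:142559894-142560043 on the plus strand, chr4:156200819-156200968 on the minus strand and chr7:142387828-142387977 on the minus strand.
Gbp3: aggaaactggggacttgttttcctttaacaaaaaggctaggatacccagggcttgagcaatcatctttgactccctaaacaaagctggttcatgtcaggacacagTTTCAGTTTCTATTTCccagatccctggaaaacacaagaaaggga
Isg15: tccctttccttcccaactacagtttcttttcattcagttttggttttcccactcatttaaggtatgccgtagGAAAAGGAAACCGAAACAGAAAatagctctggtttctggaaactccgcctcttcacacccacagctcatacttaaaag
Ctsd: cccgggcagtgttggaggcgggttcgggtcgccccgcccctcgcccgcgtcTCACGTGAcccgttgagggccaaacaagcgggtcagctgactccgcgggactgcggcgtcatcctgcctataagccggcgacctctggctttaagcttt

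The matches start 45 bases before the start of Gbp3, 78 before that of Isg15 and 99 before that of Ctsd. In the 300 bases from 250 before to 50 after each start, the interferon-response motif was in 16 of the 23 interferon response genes with a promoter entry and in 3.49% of all 27025 promoters. Among the 7 called genes, 5 had an entry and 4 held the motif. TCACGTGA was in 4 of 32 lysosomal promoters against 1.01% of all, and TCACNCCAC, a sterol-response motif, in 1 of 18 cholesterol synthesis promoters against 1.22%. A match is a description of letters, not of binding.

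Of 17 endothelial genes, 8 were lower and none higher, with a median of -0.30, 9 and 0 with the offset, and 3 and 0 in the 8 libraries. Only 5 of the 17 were called lower in both fits, against 7.23% of all genes. Flt1, a receptor of vascular endothelial growth factor, had 81.3, 85.6 and 97.2 CPM in controls and 57.5, 62.0 and 73.7 CPM in CHMP2Bintron5, a log2 fold change of -0.47 ± 0.07 (edgeR adjusted p = 6.68e-05). Tek, the angiopoietin receptor, and Pecam1, a junctional protein, fell by 0.68 (adjusted p = 0.00011) and 0.47 (adjusted p = 0.000182), and all 3 remained called in the 8 libraries. Rgs5, a signalling regulator of pericytes, fell from 150, 171 and 226 CPM to 96.8, 105 and 118 CPM (-0.78 ± 0.10, adjusted p = 4.62e-06). Of 12 pericyte and smooth muscle genes, 1 was higher and 1 lower, against 8.24% and 10.4% of all genes. The list median was 0.15, and -0.01 with the offset, and Rgs5 was the lower gene.

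Oligodendrocyte and myelin genes were lower in 7 of 24 cases and higher in none, and in 12 and 0 with the offset. Mobp, a myelin protein, fell from 1831, 1929 and 2096 CPM to 1277, 1378 and 1577 CPM (-0.48 ± 0.10, edgeR adjusted p = 0.00117; -0.52 with the offset). Gpr37, a receptor of oligodendrocytes, fell by 0.46 (adjusted p = 2.03e-05), and its groups did not overlap. Mag, a myelin adhesion protein, was called only with the offset (-0.41, adjusted p = 0.000102, against -0.18 and 0.335 without it). Of 12 oligodendrocyte precursor genes 3 were higher and 2 lower, against 8.24% and 10.4% of all genes. The lower count was 1 without control replicate 3, control replicate 4 or CHMP2Bintron5 replicate 6. Bcas1, a marker of newly formed oligodendrocytes, fell by 0.60 (adjusted p = 0.00019), and Gpr17, a receptor of committed precursors, rose by 0.71 (adjusted p = 0.00458). The call of Gpr17 was lost in the 8 libraries (0.49, adjusted p = 0.213).

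Called cholesterol synthesis genes were all lower. Of 26 cholesterol synthesis genes, 10 were lower and none higher, with a median of -0.14, and 13 and 0 with the offset; none was called in the 8 libraries. Sc5d, a late sterol desaturase, went from 41.5, 48.9 and 50.7 CPM to 23.9, 31.4 and 34.6 CPM (-0.64 ± 0.11, edgeR adjusted p = 0.000349), and Cyp51, the lanosterol demethylase, fell by 0.45 (adjusted p = 0.000597). Of 19 fatty acid synthesis genes, 9 were lower and 1 higher, and 5 were lower in the 8 libraries. Scd2, a desaturase of the nervous system, fell from 2896, 2994 and 3147 CPM to 2124, 2340 and 2507 CPM (-0.38 ± 0.05, adjusted p = 1.97e-05). Scd1 and Elovl5, a desaturase and an elongase, each fell by 0.55. Asah2, a ceramidase, fell by 1.01 (adjusted p = 4.88e-05), and Ugt8a, which makes the galactolipids of myelin, by 0.75 (adjusted p = 0.00358). Of the lipoprotein genes, Apoc1 rose by 1.14 (adjusted p = 0.000509) and Apoe by 0.60 (adjusted p = 0.0398, at most 0.119 without 1 library; 0.29 with the offset). Calls lost in the 8 libraries were those of Sc5d (-0.48, adjusted p = 0.0551), Cyp51 (-0.37, adjusted p = 0.0674), Ugt8a (-0.48, adjusted p = 0.258), Apoc1 (0.73, adjusted p = 0.0919) and Apoe (0.15, adjusted p = 0.821).

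**Figure D3:**
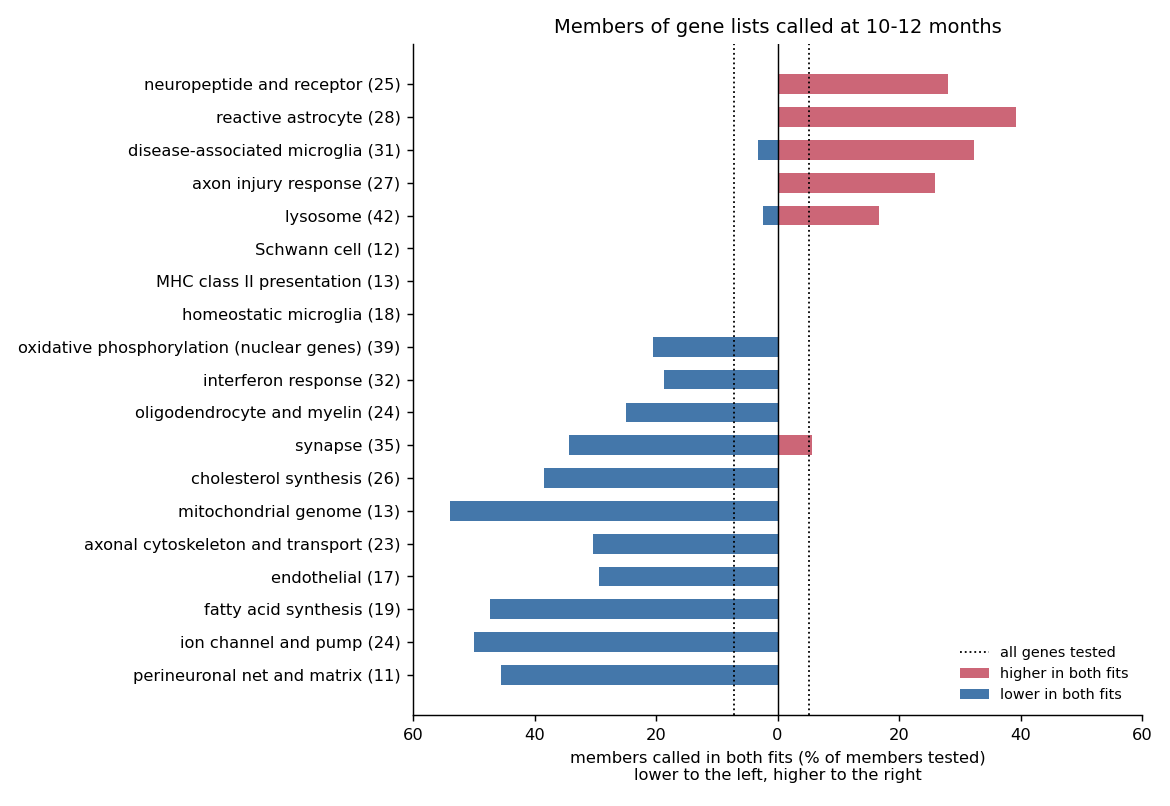
Percent of tested members called lower (blue, left) or higher (red, right) in both fits, with and without the GC and length offset, for 19 gene lists with the number of members tested in brackets. Dotted lines mark all genes tested, 7.23% lower and 5.25% higher; no member of the homeostatic microglia, MHC class II presentation and Schwann cell lists was called in both fits.

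Transcripts of the mitochondrial genome took a smaller share of the counts in CHMP2Bintron5. The share lay between 3.76% and 6.10% (median 4.54%) in the controls and between 3.01% and 3.90% (median 3.56%) in CHMP2Bintron5. The mean difference was -1.24 percentage points (exact two-sided permutation p = 0.00433, n = 6 and 6). Only the lowest control, replicate 1, lay below the highest transgenic library. Without the 4 libraries of extreme GC slope the difference was -0.66 points (exact permutation p = 0.0571, n = 4 and 4). These transcripts are low in GC content, and the part of the libraries' GC slope in this value was not tested. Of 13 mitochondrial genes 8 were lower and none higher, 7 and 0 with the offset, and none was called in the 8 libraries. mt-Co1, a subunit of cytochrome oxidase, fell by 0.62 (edgeR adjusted p = 0.000349; 0.40 with the offset), and mt-Nd6, the subunit gene on the other strand, by 1.04 (adjusted p = 0.00212). Of 39 nuclear genes of oxidative phosphorylation 10 were lower and none higher, against 10.4% and 8.24% of all genes. Among them Ndufs1, a subunit of complex I, was lower by 0.36 (adjusted p = 0.00104) and Sdha, of complex II, by 0.25 (adjusted p = 0.00117). The values without the extreme libraries were -0.35 for mt-Co1 (adjusted p = 0.0919), -0.92 for mt-Nd6 (adjusted p = 0.0812), -0.20 for Ndufs1 (adjusted p = 0.188) and -0.15 for Sdha (adjusted p = 0.168), with no call.

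Among chaperones, 6 of 14 heat shock genes were lower and 2 higher, against 10.4% and 8.24% of all genes. The counts were 7 and 2 with the offset. Hsph1 and Hspa8, cytosolic chaperones that act together, had no overlap between groups and fell by 0.60 (edgeR adjusted p = 0.000774) and 0.50 (adjusted p = 0.0055). Hsp90b1, a chaperone of the endoplasmic reticulum from the unfolded protein list, went from 346, 362 and 484 CPM to 252, 277 and 300 CPM (-0.50 ± 0.09, adjusted p = 0.000245). Hspb8, a small chaperone that works with BAG3 in the disposal of damaged proteins, rose by 0.47 ± 0.09 (adjusted p = 0.000522), and was the 1 heat shock gene called in the 8 libraries. The calls of Hsph1 (-0.44, adjusted p = 0.0919) and Hspa8 (-0.45, adjusted p = 0.148) were lost there.

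Hormone-related genes included some of the larger changes. Hsd11b1, the enzyme that regenerates active glucocorticoid, had 27.6, 28.2 and 34.4 CPM in controls and 12.2, 12.6 and 15.9 CPM in CHMP2Bintron5, a log2 fold change of -1.18 ± 0.12 (edgeR adjusted p = 1.57e-07). Dio2, which makes active thyroid hormone in astrocytes, fell by 1.01 (adjusted p = 0.00153). Of 19 glucocorticoid response genes 3 were higher and 1 lower, against 8.24% and 10.4% of all genes. The higher count was 6 without replicate 1 of either group, and 1 without control replicate 3, control replicate 4 or CHMP2Bintron5 replicate 6. The lower count was 0 without control replicate 2, 3 or 6, or without CHMP2Bintron5 replicate 2 or 4. Plin4, a lipid droplet coat protein, was higher by 1.90 ± 0.43 (adjusted p = 0.00368), but ranged from 15.4 to 194 CPM within CHMP2Bintron5, and the groups overlapped. Fkbp5, a chaperone induced by glucocorticoid, was higher by 0.74 (adjusted p = 0.0272), and CHMP2Bintron5 replicate 6 held the highest value of both (194 and 113 CPM). Dio2 (-0.84, adjusted p = 0.0796) and Fkbp5 (0.79, adjusted p = 0.164) lost their call in the 8 libraries, and the highest adjusted p of Fkbp5 without 1 library was 0.143.

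Most of the other genes named by rank were at a low level. On the higher side they were Gabrr2, a GABA receptor subunit (2.02), Padi1, an enzyme that converts arginine to citrulline (1.83), Itgad, an integrin (1.58), Gpr179, a receptor of the retina (1.33), Sctr, the secretin receptor (1.18), Batf3, a transcription factor of immune cells (1.14), and Odf4, a sperm tail protein (1.11). On the lower side were Pmp2, a fatty acid-binding myelin protein (-1.75), Aqp6, an aquaporin (-1.50), Ighm, the heavy chain of immunoglobulin M (-1.31), Smyd1, a methyltransferase of muscle (-1.29), Ifi203, an interferon-inducible gene (-1.23), Btc, a growth factor (-1.20), and Fbxo40, a ubiquitin ligase subunit of muscle (-1.20). These are log2 fold changes, and each was called in both fits and without any 1 of the 12 libraries. Fbxo40 ranged from 5.35 to 7.35 CPM in controls and from 1.78 to 4.39 CPM in CHMP2Bintron5. Its groups did not overlap, and its highest transgenic value was in the library with muscle RNA. Of 19 T and NK cell genes only Gzma, a granzyme, was lower (-2.69), at levels below 1 CPM throughout. Of 11 B and plasma cell genes only Ighm was called. In the 8 libraries the calls of Padi1, Sctr, Batf3, Odf4, Pmp2, Ifi203, Btc and Gzma were lost, with adjusted p between 0.0644 (Gzma) and 0.287 (Batf3).

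Several lists showed no called member. None of the 13 MHC class II presentation genes, 12 Schwann cell genes, 10 tested genes of dorsal root ganglion sensory neurons and 10 neutrophil genes passed the test without the offset. The neutrophil genes all had negative values, with a median of -0.62. Their summed CPM lay between 46.8 and 227 in the controls and between 21.05 and 112 in CHMP2Bintron5.

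The effects were then set beside those at the younger ages, which use other libraries. At 6 months, CHMP2Bintron5 replicates 2 and 3 held much Avil, a sensory neuron gene (60.6 and 148 CPM of the library total). The 10 tested genes of dorsal root ganglion sensory neurons had a median log2 fold change of 4.47 at that age. How far ganglion RNA entered the 6 month calls was not tested. Of the genes higher at 10-12 months, 657 were also higher at 6 months (39.8% of the 10-12 month genes and 57.8% of the 1137 at 6 months) and 187 at 1.5 months (11.3%, and 53.1% of 352). Of the genes lower, 870 were also lower at 6 months (41.9%, and 76.5% of 1137) and 316 at 1.5 months (15.2%, and 80.2% of 394). These counts are out of 20015 genes tested. With the offset, 1618 genes were higher and 1828 lower at 6 months, and 626 and 1105 at 1.5 months. The shares of the 10-12 month higher and lower genes also called were then 50.3% and 59.9% at 6 months, and 19.6% and 37.4% at 1.5 months. In both fits, 69 genes were higher and 232 lower at all 3 ages.

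Several neuronal genes were lower at all 3 ages, and no difference between ages was called for them. Atp2b1 had log2 fold changes of -1.19 at 1.5 months, -1.12 at 6 months and -1.29 at 10-12 months, Scn4b of -0.87, -0.90 and -0.93, and Chrna2 of -2.31, -2.04 and -2.21, all called. Among genes of phagocytes and chemokines, Itgax stood at 3.88, 0.45 and 1.60, and Ccl4 at 3.65, 0.72 and 1.33, and for both the 6 month value was not called. Ifi44 (0.09, -0.36 and -1.32) and Gbp3 (-0.20, -0.54 and -0.92) were not called at the younger ages, but the difference between ages was not called for either gene.

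A test of the difference between ages found 2 of 20015 genes against 1.5 months (0.00999%) and 1 against 6 months (0.005%) by edgeR at an adjusted p under 0.05. At an unadjusted p under 0.05 there were 1122 (5.61%) and 586 (2.93%). Fcrls, an Fc receptor-like gene of microglia, had a log2 fold change of 1.12 at 1.5 months and -0.56 at 10-12 months, a difference of -1.69 (adjusted p = 0.0444). Pdcd1, the immune checkpoint receptor PD-1, went from 3.56 to 0.64, a difference of -2.92 (adjusted p = 0.0135). Avil, a sensory neuron gene, differed from 6 months by -6.33 (adjusted p = 0.0309), and was high at 6 months in CHMP2Bintron5 replicates 2 and 3 only (60.6 and 148 CPM of the library total, against at most 1.27 in the other libraries of that age). Without these 2 libraries the call was lost. All 3 were below 4 CPM in every 10-12 month library.

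**Figure D4:**
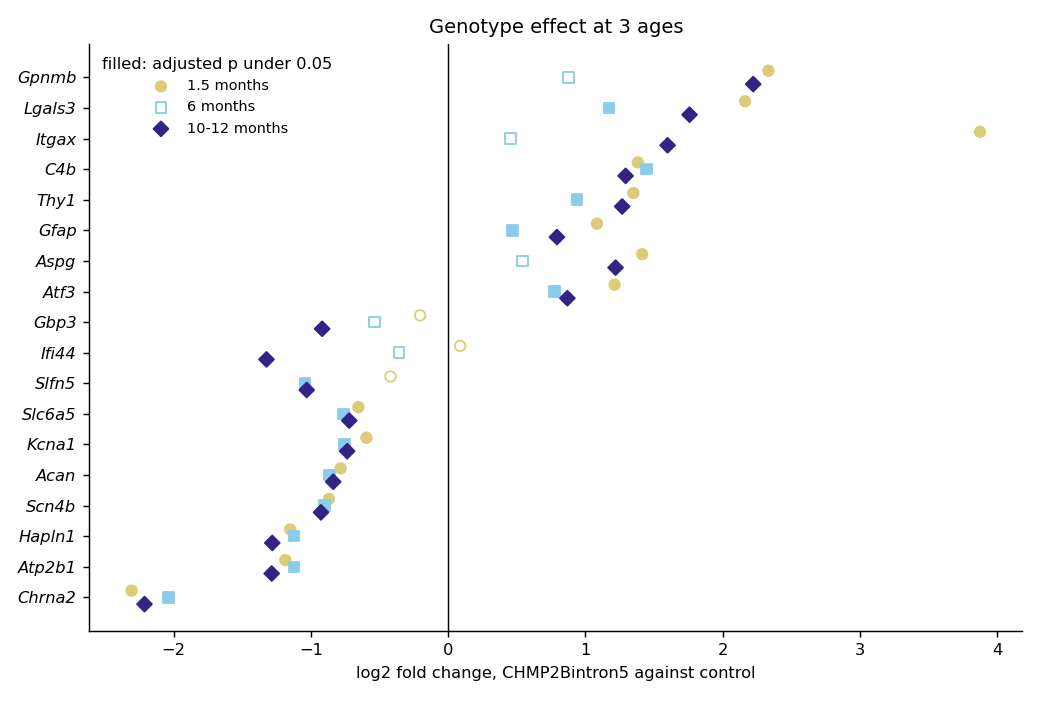
Log2 fold change of CHMP2Bintron5 against control for 18 genes at 1.5 months (circles), 6 months (squares) and 10-12 months (diamonds), filled where the adjusted p was under 0.05. The neuronal genes from Slc6a5 to Chrna2 are filled at the 3 ages. Itgax stands at 3.88, 0.45 and 1.60 and is open at 6 months. The 3 interferon-inducible genes Gbp3, Ifi44 and Slfn5 are filled at 10-12 months and open at 1.5 months.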

How the data were processed

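RNA from spinal cord was sequenced from TruSeq Stranded mRNA libraries, per the labels' protocols. The deposited table holds raw counts per gene for 32 libraries, and the submitters' processing notes name mm10, bcl2fastq 2.17.1.14, TopHat2 2.0.14, Bowtie2 2.1.0 and HTSeq 0.6.1. No source used here states the strand setting of counting, so values of overlapping genes are uncertain.

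All 32 libraries were fitted with edgeR 4.0.16 (R 4.3.3, TMM scaling, quasi-likelihood test, 1 term per genotype and age). Of 45706 genes, 20015 passed filterByExpr (minimum count 10, minimum total 15), and p-values were adjusted by Benjamini-Hochberg. The SE of a log2 fold change was derived from the test, as its absolute value divided by the square root of the F statistic. The offset came from per-library splines (5 degrees of freedom) of GC content and exon length (GENCODE M21) over genes of at least 1 CPM. Extreme GC slopes were those beyond 0.2 in either direction. DESeq2 1.42.0 and limma 3.58.1 (voom) served as alternatives. The fits were also run on simulated counts with and without a GC trend. That trend came from the spline model of the offset, so the simulation cannot judge how the offset handles a real trend.

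Named genes were Chmp2b and Thy1; the 15 highest and 15 lowest changes (mean of at least 1 CPM, all transgenic libraries above, or all below, the control mean, kept with the offset and without each of the 12 libraries); the 10 most abundant protein-coding genes meeting the same; up to 4 called members of each list by lowest p; genes differing between ages; and list members whose call changed with the offset. Members and the 62 lists (1153 genes) were chosen with earlier results of these data known. Libraries of a group were no duplicates: the chi-square per gene between pairs was 11.9 to 136, where 1 is sampling noise. Some genes that meet these rules are not reported here.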

Additional observations from a re-analysis of the deposited data

Results flagged for a closer look

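Of 304 groups of 6 libraries checked for a value far from the others, 17 held one. Chance flags about 1 group in 20. In CHMP2Bintron5 replicate 6 the far values were Gabrr2 at 9.67 CPM, Itgad at 5.67 CPM, Plin4 at 194 CPM and Fkbp5 at 113 CPM, each the highest of its group. In CHMP2Bintron5 replicate 3 they were Acta1 at 112 CPM, Fbxo40 at 4.39 CPM and Atf3 at 7.65 CPM, also the highest. In CHMP2Bintron5 replicate 2 they were Hsd11b1 at 15.9 CPM, Mlc1 at 276 CPM and Ctsd at 775 CPM, again the highest. Among the controls, replicate 1 had the highest Sctr (2.24 CPM), Calcb (13.3 CPM), C1qc (33.9 CPM) and Ccl4 (0.535 CPM), replicate 5 the highest Dio2 (22.8 CPM), and replicate 6 the highest Padi1 (0.927 CPM) and the lowest Aqp6 (1.74 CPM).

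The genotype effect differed between ages for 3 genes by edgeR's test of the difference. Fcrls differed from 1.5 months by -1.69 on the log2 scale (adjusted p = 0.0444), Pdcd1 from 1.5 months by -2.92 (adjusted p = 0.0135), and Avil from 6 months by -6.33 (adjusted p = 0.0309).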

How the results depend on the processing

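Counts of higher and lower genes stayed within 1.5 times of 1650 and 2075 under other scalings, filters, the offsets, DESeq2, voom and the 10-12 month libraries alone. Without the 4 libraries of extreme GC slope they were 162 and 242, and 480 and 797 with the offset, from 4 libraries a group. Leaving out 1 library gave 813 to 2358 higher and 1189 to 2654 lower genes, and 1254 to 1858 and 1686 to 2314 with the offset. Replicate numbers did not pair the libraries (correlations of same-numbered deviations -0.546 to 0.559, own number best for 1 of 6); with the replicate block 747 were higher and 947 lower, and 0 genes differed from either younger age. Genes differing from 1.5 months numbered 0 with the stricter filter, 7 with the offset, 11 with the GC offset alone, 21 by DESeq2, 1 without the 6 month CHMP2Bintron5 replicates 2 and 3, 4 without the extreme libraries with the offset, and 1 to 4 without 1 library (3 to 12 with the offset: 5, 6, 8, 9, 10 or 12 where the count moved). Genes differing from 6 months numbered 4 with upper-quartile scaling, without mitochondrial genes, with no filter, with the stricter filter and with either offset, 19 by DESeq2, 0 by voom, 0 with the block and offset, 0 without the 6 month replicates 2 and 3, 0 without the extreme libraries with or without the offset, and 0 to 1 without 1 library, with or without the offset. The mitochondrial difference was -0.66 points without the extreme libraries and -1.43 to -0.966 without 1 library; the GC slope difference was 0.219 to 0.345. The median log2 fold change of the highest minus the lowest GC decile was 0.563, 0.00522 with the offset and 0.0213 without the extreme libraries. Of 137 called genes checked, none reversed, 113 kept their call in every planned setting and 60 in every setting. Without the extreme libraries 74 lost it, and 38 lost it there with the offset. The age differences could not be fitted from the 10-12 month libraries alone. The cause of these movements was not tested.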

Other observations

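Ribosomal protein genes, which encode the structural proteins of the ribosome, all had positive log2 fold changes at 10-12 months (35 of 35, median 0.34). Only 4 of them were called higher, against 8.24% of all genes, and 5 with the offset (median 0.22). The count was 16 without control replicate 1, 1 without control replicate 2 or CHMP2Bintron5 replicate 4, and 0 without control replicate 3, control replicate 4 or CHMP2Bintron5 replicate 2. Without the 4 libraries of extreme GC slope the median was -0.002 and none was called.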
